A study of Homo sapiens with 16 samples.

Results

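The expression of 10 transcription factor genes was followed in SK-N-SH neuroblastoma cells exposed to risperidone: PRRX1, FOXD1, TWIST1, SNAI2, ZEB1, RUNX1, RUNX2, FOSL1, FOSL2 and TBX18. They were taken by their platform symbol as a given list of regulators of the mesenchymal cell state. The 10 genes are among 18239 on the array, and their 34 probe sets are among 45253 that carry a single gene symbol. The members were chosen on the differences from untreated cells in these same arrays. For the 10 genes those differences are therefore given as a description, and they are tested in the contrasts between exposure times. Genes outside the list were tested in every contrast. The companion lists that group some of them were also chosen with earlier results of these data known. Counts of those lists against untreated cells are therefore a description too.

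SK-N-SH is an established human neuroblastoma line, and risperidone is an antipsychotic that blocks dopamine and serotonin receptors. The study asked how gene expression moved with time of exposure, using total RNA on 16 Human Genome U219 arrays, 4 in each of 4 groups. One group was labelled untreated, and the other groups received 10 µM risperidone for 6, 24 or 48 h. All cultures had first been grown close to confluence. The labels call the control cells untreated, while the protocol says that controls received the DMSO vehicle in which the drug was dissolved. No harvest time is given for the controls, so time in culture and exposure cannot be told apart in any contrast with untreated cells, and the same 4 untreated arrays serve each such contrast. The arrays of a group are called biological replicates with no mention of separate cultures, so the p-values below reflect how far these arrays vary, which may be technical.

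Neuroblastoma cells are known to take either an adrenergic, neuroblast-like state or a mesenchymal state that resembles neural crest cells, and each state is held by its own set of transcription factors. PRRX1, a homeobox factor, can by itself move adrenergic cells towards the mesenchymal state. SNAI2, TWIST1 and ZEB1 are the classical drivers of epithelial-mesenchymal transition, RUNX and AP-1 factors bind together at mesenchymal enhancers, and the culture used here is known to hold cells of both states. In RNA from a whole culture, fewer cells of one state and less RNA per cell cannot be told apart.

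The labelled cell line carried markers of both states. In untreated cells the adrenergic genes DBH (dopamine beta-hydroxylase), CHGA (chromogranin A) and STMN2 (stathmin 2) had mean log2 values of 10.51, 12.68 and 12.84, and the mesenchymal genes VIM (vimentin), FN1 (fibronectin) and CD44 had 13.30, 10.36 and 11.13. TH, the first enzyme of catecholamine synthesis, was at 4.90, near the median of 4.558 over all probe sets. At 6 h the adrenergic genes DBH, CHGA and STMN2 stood at 11.67, 13.08 and 13.12, and VIM, FN1 and CD44 stood at 12.06, 7.06 and 7.70. Marker lists of other cell types had low means in every group, though single genes of them did not. The 7 Schwann cell genes on the array had array means of 3.98 to 4.06 in untreated cells and 3.78 to 3.97 in treated cells, the 5 melanocyte genes 3.98 to 4.12 and 3.86 to 4.02, the 7 endothelial genes 3.66 to 3.77 and 3.64 to 3.83, and the 6 leukocyte genes 3.79 to 3.93 and 3.57 to 3.76. The 7 muscle genes lay at 4.72 to 4.79 in untreated cells and 4.28 to 4.53 in treated cells. Within these lists ACTA2, smooth muscle actin, stood at 10.17 in untreated cells and fell by 2.50 ± 0.13 at 6 h (other probe sets 0.005 to 0.02). CD68, a lysosomal protein of macrophages, fell by 1.51 ± 0.10 from 5.94 (its other probe set -0.43). MBP, a myelin protein, fell by 1.86 ± 0.10 from 5.61 (other probe sets -0.345 to 0.125). MITF, the melanocyte factor, fell by 0.92 ± 0.08 from 5.70 (its other probe set -0.95). S100B, a Schwann cell gene, rose by 0.61 ± 0.05 from 5.32 (other probe sets 0.20 to 0.47). These 5 were singled out after their values were seen. The 3 prime minus 5 prime difference of the ACTB control probe sets, a sign of RNA quality, was 1.55 to 1.94 in untreated cells, 1.98 to 2.41 at 6 h, 1.94 to 2.16 at 24 h and 1.76 to 2.15 at 48 h, while that of GAPDH was 0.07 to 0.18 throughout. The part of the ACTB difference and of these marker genes in the results on the 10 factors was not tested.

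The start regions of the factors are shown first, because several members are themselves known targets of the families that the list is made of. RefSeq entries of build GRCh38.p14, each from 250 bases before to 50 bases after a listed transcription start, gave 14 windows for 7 of the 10 genes; TWIST1, SNAI2 and FOSL1 are not shown. The windows were searched on both strands for AP-1 (TGANTCA), RUNX (TGTGGT), the E2-box bound by SNAI and ZEB proteins (CAGGTG), TEAD (GGAATG), a homeodomain core (TAATTA), forkhead (GTAAACA) and T-box (AGGTGTGA) letters. Capitals mark each match. PRRX1 at chr1:170663881-170664180 (plus strand) and FOXD1 at chr5:73448728-73449027 (minus strand) are shown because they had the lowest values relative to untreated cells, RUNX1 at chr21:34888650-34888949 (minus strand) and the upstream start of RUNX2 at chr6:45328080-45328379 (plus strand) as the pair of RUNX genes, FOSL2 at chr2:28392608-28392907 (plus strand) as the AP-1 member, and the third of 7 ZEB1 windows at chr10:31318966-31319265 (plus strand) because ZEB1 ran the other way. Which windows to show was decided after the values and matches had been seen.
PRRX1: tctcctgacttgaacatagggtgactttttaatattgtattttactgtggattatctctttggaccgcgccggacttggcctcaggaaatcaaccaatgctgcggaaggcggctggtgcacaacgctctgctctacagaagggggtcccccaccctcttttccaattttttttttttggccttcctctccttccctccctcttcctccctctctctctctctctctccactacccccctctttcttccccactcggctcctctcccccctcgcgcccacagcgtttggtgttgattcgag
FOXD1: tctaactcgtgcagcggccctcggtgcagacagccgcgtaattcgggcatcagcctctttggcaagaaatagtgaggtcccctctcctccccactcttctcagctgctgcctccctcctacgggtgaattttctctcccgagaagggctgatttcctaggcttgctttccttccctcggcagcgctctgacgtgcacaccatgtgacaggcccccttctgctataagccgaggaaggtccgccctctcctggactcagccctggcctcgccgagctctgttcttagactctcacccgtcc
RUNX1: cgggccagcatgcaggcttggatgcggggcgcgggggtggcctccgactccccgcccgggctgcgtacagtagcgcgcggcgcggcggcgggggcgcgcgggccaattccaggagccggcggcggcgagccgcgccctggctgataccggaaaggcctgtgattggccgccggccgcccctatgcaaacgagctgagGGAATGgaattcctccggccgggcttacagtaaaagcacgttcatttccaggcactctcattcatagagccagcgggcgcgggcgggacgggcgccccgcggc
RUNX2: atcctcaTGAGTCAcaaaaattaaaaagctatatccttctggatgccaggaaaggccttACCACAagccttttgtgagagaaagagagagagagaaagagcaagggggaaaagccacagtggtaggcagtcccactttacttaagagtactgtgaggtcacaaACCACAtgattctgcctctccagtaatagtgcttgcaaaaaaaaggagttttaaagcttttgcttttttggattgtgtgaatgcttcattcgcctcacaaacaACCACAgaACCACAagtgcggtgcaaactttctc
FOSL2: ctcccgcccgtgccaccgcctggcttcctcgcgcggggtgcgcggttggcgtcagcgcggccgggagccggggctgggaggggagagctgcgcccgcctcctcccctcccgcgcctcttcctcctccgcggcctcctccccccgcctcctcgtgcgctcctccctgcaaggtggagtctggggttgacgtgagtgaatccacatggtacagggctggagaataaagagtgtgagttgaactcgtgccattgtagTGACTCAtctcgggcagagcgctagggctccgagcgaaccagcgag
ZEB1: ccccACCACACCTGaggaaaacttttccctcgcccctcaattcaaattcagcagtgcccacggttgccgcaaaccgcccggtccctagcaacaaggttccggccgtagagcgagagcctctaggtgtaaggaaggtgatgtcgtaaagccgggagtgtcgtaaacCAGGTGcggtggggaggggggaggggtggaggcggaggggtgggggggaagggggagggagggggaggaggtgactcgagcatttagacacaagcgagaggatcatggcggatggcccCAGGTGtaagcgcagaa

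The upstream RUNX2 window held 1 AP-1 match, at position -243 from the listed start, and 4 RUNX matches, at -191, -87, 16 and 24. The FOSL2 window held 1 AP-1 match at position 4. Among 35116 RefSeq windows of the same length, 7.71% held the AP-1 letters and 13.1% the RUNX letters. The ZEB1 window held 3 E2-box matches, 1 of which overlapped its RUNX match, against 20.6% of all windows with an E2-box match. The RUNX1 window and the downstream RUNX2 window, at chr6:45422025-45422324, each held 1 TEAD match, letters found in 14% of all windows. Over the 14 windows of the 7 genes, 2 held AP-1, 3 RUNX, 2 E2-box, 3 TEAD and 1 forkhead letters, and 0 held the homeodomain or T-box letters, which occur in 4.84% and 0.98% of all windows; forkhead letters occur in 3.42%. The PRRX1, FOXD1 and TBX18 windows held no match. A match is a description of letters in a window and shows no binding.

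The developmental homeobox and forkhead factors stood furthest below untreated cells. PRRX1, which patterns limb and craniofacial mesenchyme, measured 8.88, 9.11, 9.04 and 9.25 in the untreated arrays, 4.36, 4.19, 3.59 and 3.76 at 6 h, 4.03, 4.12, 3.86 and 3.83 at 24 h and 3.94, 3.62, 3.84 and 4.03 at 48 h (log2 RMA values of its brighter probe set). All 12 treated arrays lay far under the untreated range, and the exposure times overlapped one another. The difference from untreated was -5.10 ± 0.14 (standard error from limma, n = 4 per group) at 6 h, a 34.2-fold lower value, -5.11 ± 0.14 at 24 h and -5.21 ± 0.14 at 48 h. The dimmer PRRX1 probe set differed by -1.86, -1.90 and -1.96. FOXD1, a forkhead factor of stromal progenitors, measured 8.61, 8.94, 9.01 and 9.06 in untreated cells, 3.81, 3.87, 3.98 and 3.86 at 6 h, 4.07, 4.07, 3.85 and 3.89 at 24 h and 3.81, 3.93, 3.98 and 4.16 at 48 h. Its single probe set thus showed the same separation, with no treated array near the untreated ones. The difference was -5.03 ± 0.09 at 6 h, 32.6-fold lower, and -4.94 ± 0.09 at both 24 and 48 h.

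Both genes came close to the bottom of the scale in treated cells. The 25th percentile of all probe sets averaged 3.505 over the arrays, and the 3 probe sets against the bacterial trp transcript, a blank here, lay between 2.89 and 3.30. RMA values carry no detection call, so how far the treated PRRX1 and FOXD1 values stood above background is unknown, and a fold computed down to that range can understate the difference.

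**Figure D1:**
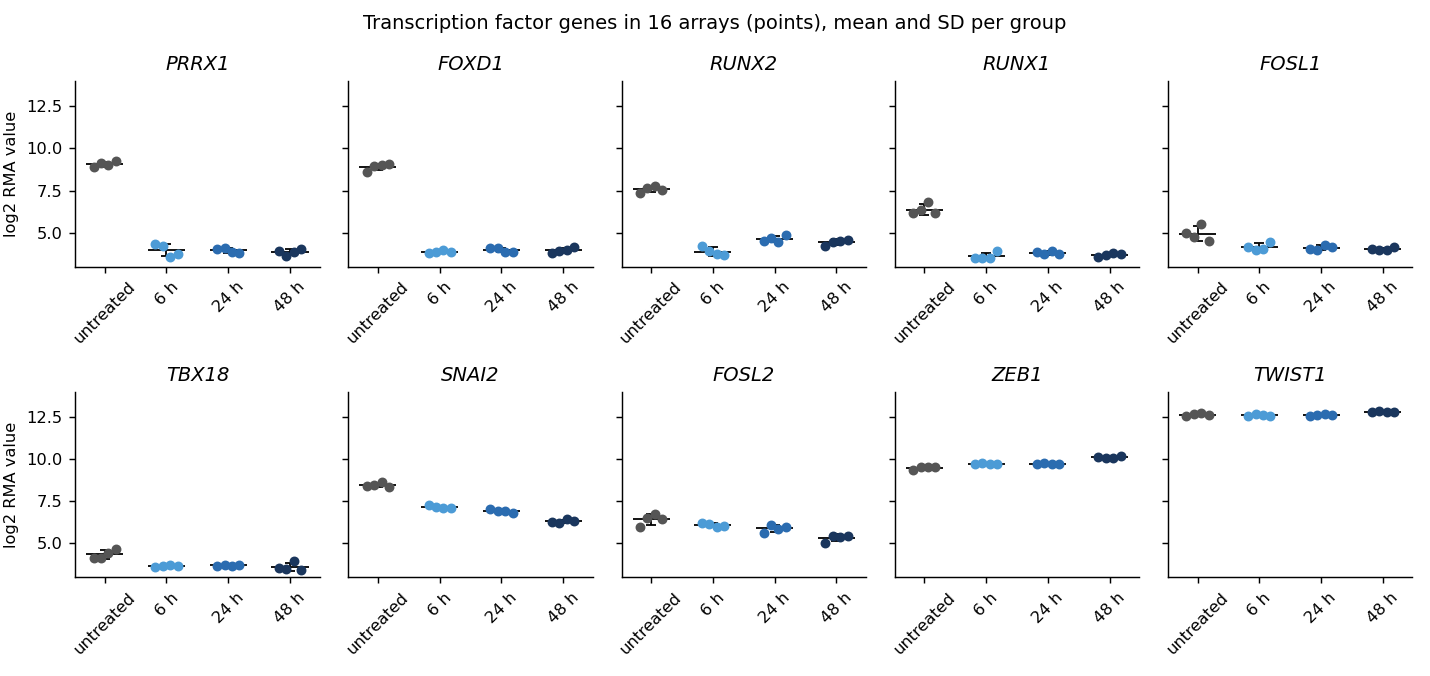
Log2 RMA value (vertical axis, 1 scale for all panels) of each of the 10 genes in untreated cells and after 6, 24 and 48 h of 10 µM risperidone. Points are the 4 arrays of a group, long bars the mean and short bars the SD. PRRX1 and FOXD1 had group means of 9.07 and 8.91 in untreated cells and of 3.98 and 3.88 at 6 h, SNAI2 was lowest and ZEB1 highest at 48 h.

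The RUNX factors, which bind DNA with their partner CBFB and govern blood and bone development, were also far below untreated cells. The treated values of RUNX1, and those of RUNX2 at 6 h, lay near the bottom of the scale. There the untreated level limits how large the differences can be. RUNX2 at 24 and 48 h had means of 4.64 and 4.44, near the median of 4.558 over all probe sets. RUNX2, the osteoblast factor, measured 7.38, 7.63, 7.75 and 7.53 in untreated cells, 4.23, 3.90, 3.74 and 3.69 at 6 h, 4.53, 4.67, 4.48 and 4.88 at 24 h and 4.19, 4.48, 4.52 and 4.58 at 48 h. Every treated array was below every untreated one, yet the 6 h arrays lay below all the 24 h arrays. The differences from untreated were -3.68 ± 0.12 at 6 h, -2.93 ± 0.12 at 24 h and -3.13 ± 0.12 at 48 h. Between times, RUNX2 rose by 0.75 ± 0.12 from 6 to 24 h (1.68-fold, adjusted p = 0.003 by limma with Benjamini-Hochberg adjustment over 13680 genes), with all 4 arrays higher. At 48 h it was still above 6 h by 0.55 ± 0.12 (adjusted p = 0.00193, limma), although its lowest 48 h array, 4.19, fell below the highest 6 h array, 4.23. The step from 24 to 48 h was -0.20 ± 0.12 (adjusted p = 0.247, limma). The rise was seen with the brighter of the 2 RUNX2 probe sets; the other stayed at 3.47 to 3.63 in every group mean, and the mean of both gave 0.36.

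RUNX1, the master factor of blood stem cells, measured 6.16, 6.38, 6.82 and 6.16 in untreated cells, 3.49, 3.49, 3.49 and 3.92 at 6 h, 3.89, 3.72, 3.93 and 3.72 at 24 h and 3.58, 3.68, 3.82 and 3.74 at 48 h. The treated arrays lay well under the untreated range and overlapped between times. Its differences from untreated were -2.78 ± 0.13, -2.57 ± 0.13 and -2.68 ± 0.13 at 6, 24 and 48 h. The other bright RUNX1 probe set differed by -2.37, -2.26 and -2.17, while the remaining 5, at 3.00 to 3.82 in untreated cells, differed by -0.20 to 0.13. From 6 to 24 h RUNX1 moved by 0.22 (95% interval -0.05 to 0.49, adjusted p = 0.497, limma), so a rise like that of RUNX2 was not detected and whether the 2 family members differed in this step was not tested.

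FOSL1 and FOSL2 are AP-1 members, which pair with JUN proteins at enhancers and collagenase promoters; whether the pair differed in their course was not tested. FOSL1 measured 5.00, 4.75, 5.53 and 4.53 in untreated cells, 4.15, 3.98, 4.02 and 4.46 at 6 h, 4.04, 3.98, 4.28 and 4.17 at 24 h and 4.03, 4.00, 3.99 and 4.15 at 48 h. The lowest untreated array was only just above the highest 6 h array, but no treated array reached the untreated range. The differences were -0.80, -0.84 and -0.91 (each ± 0.16), and the other 5 FOSL1 probe sets gave -0.40 to -1.80 at 6 h. The probe set that stands for FOSL1 has a name ending in x, which marks probes that may also match other transcripts. Between times FOSL1 moved by -0.04 from 6 to 24 h and by -0.08 from 24 to 48 h (adjusted p = 0.958 and 0.774, limma).

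FOSL2 measured 5.96, 6.51, 6.77 and 6.47 in untreated cells, 6.20, 6.14, 5.97 and 6.01 at 6 h, 5.65, 6.12, 5.85 and 5.96 at 24 h and 5.05, 5.45, 5.41 and 5.45 at 48 h. With this probe set the first untreated array lay among the 6 h and 24 h arrays, and only the 48 h arrays were below all the others. The differences from untreated were -0.35 ± 0.14, -0.53 ± 0.14 and -1.09 ± 0.14. From 24 to 48 h FOSL2 fell by 0.56 ± 0.14 (1.47-fold, adjusted p = 0.00668, limma), and it was also lower at 48 h than at 6 h, by -0.74 ± 0.14 (adjusted p = 0.000661, limma). The 2 other bright FOSL2 probe sets stood lower from 6 h on, at -1.29 and -0.93, and fell further from 24 to 48 h, by 0.76 and 0.53 (adjusted p = 0.000946 and 0.00562, limma over all probe sets, of which 8.21% fell). The 2 dim ones changed by -0.06 and -0.02 in that step.

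TBX18, a T-box factor of the sinoatrial node and of the epicardium, was dim in every group. It measured 4.13, 4.15, 4.46 and 4.69 in untreated cells, 3.59, 3.65, 3.72 and 3.64 at 6 h, 3.67, 3.71, 3.67 and 3.75 at 24 h and 3.53, 3.51, 3.97 and 3.40 at 48 h. The treated arrays were all below the untreated ones, though both sit in the lower range of the array. The differences were -0.71, -0.66 and -0.76 (each ± 0.12), and those of the other, dimmer probe set -0.16, -0.17 and -0.24.

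SNAI2, the zinc finger repressor also called Slug, stood lower at each later time. It measured 8.38, 8.45, 8.65 and 8.37 in untreated cells, 7.26, 7.17, 7.09 and 7.13 at 6 h, 7.04, 6.91, 6.94 and 6.81 at 24 h and 6.27, 6.24, 6.43 and 6.36 at 48 h. None of the 4 groups overlapped with another. The share of all genes with such a separation of all 4 groups was not computed. The differences from untreated were -1.30, -1.54 and -2.14 (each ± 0.07), that is 2.46-fold, 2.90-fold and 4.40-fold lower. SNAI2 fell from 24 to 48 h by 0.60 ± 0.07 (1.52-fold, adjusted p = 8.24e-06, limma) and from 6 to 48 h by 0.84 ± 0.07 (adjusted p = 1.77e-07, limma). The step from 6 to 24 h, -0.24 ± 0.07, did not pass the threshold (adjusted p = 0.0891, limma), although all 24 h arrays lay below all 6 h arrays, a separation that 4.8% of all genes showed.

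ZEB1 and TWIST1, the remaining drivers of epithelial-mesenchymal transition, were highest at 48 h. ZEB1, a zinc finger repressor of CDH1, measured 9.37, 9.53, 9.55 and 9.52 in untreated cells, 9.74, 9.75, 9.70 and 9.71 at 6 h, 9.74, 9.75, 9.72 and 9.73 at 24 h and 10.10, 10.06, 10.09 and 10.18 at 48 h. Every treated array was above every untreated one, 6 and 24 h coincided, and 48 h stood apart. The differences from untreated were 0.23, 0.24 and 0.62 (each ± 0.04), beside a median over all genes of 0.0925, 0.0875 and 0.075. The other 6 ZEB1 probe sets gave 0.13 to 0.34 at 6 h, -0.12 to 0.15 at 24 h and 0.23 to 0.51 at 48 h, and the mean of all 7 gave 0.08 at 24 h. With cyclic loess the brightest gave 0.15, 0.16 and 0.54. ZEB1 rose by 0.37 ± 0.04 from 24 to 48 h (1.29-fold, adjusted p = 1.48e-05, limma) and by 0.38 ± 0.04 from 6 to 48 h (adjusted p = 7.53e-06, limma). Over that longer span the other 6 probe sets rose less, by 0.09 to 0.33, and the mean of all 7 by 0.20. In the fit of all probe sets 3 of the 7 passed the threshold from 6 to 48 h. The share of all probe sets that did so is not given here. All 7 ZEB1 probe sets were higher at 48 than at 24 h, by 0.29 to 0.39, each past the threshold in the fit of all probe sets, of which 8.66% rose in that step. In the step from 6 to 24 h they did not move alike: the brightest changed by 0.01, and the other 6 by -0.06 to -0.25, of which 1 passed the threshold (-0.20, adjusted p = 0.0499, limma), where 0.977% of all probe sets fell.

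TWIST1, a basic helix-loop-helix factor that binds DNA with E proteins, was far up the scale of the array in every group. It measured 12.54, 12.70, 12.72 and 12.61 in untreated cells, 12.59, 12.65, 12.62 and 12.55 at 6 h, 12.57, 12.64, 12.66 and 12.63 at 24 h and 12.80, 12.86, 12.78 and 12.79 at 48 h. The first 3 groups overlapped, and the 48 h arrays lay above all of them. The differences from untreated were -0.04, -0.02 and 0.17 (each ± 0.05), against -5.10 for PRRX1 at 6 h. TWIST1 rose by 0.18 ± 0.05 from 24 to 48 h (1.13-fold, adjusted p = 0.00684, limma) and by 0.21 ± 0.05 from 6 to 48 h (adjusted p = 0.00257, limma).

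**Figure D2:**
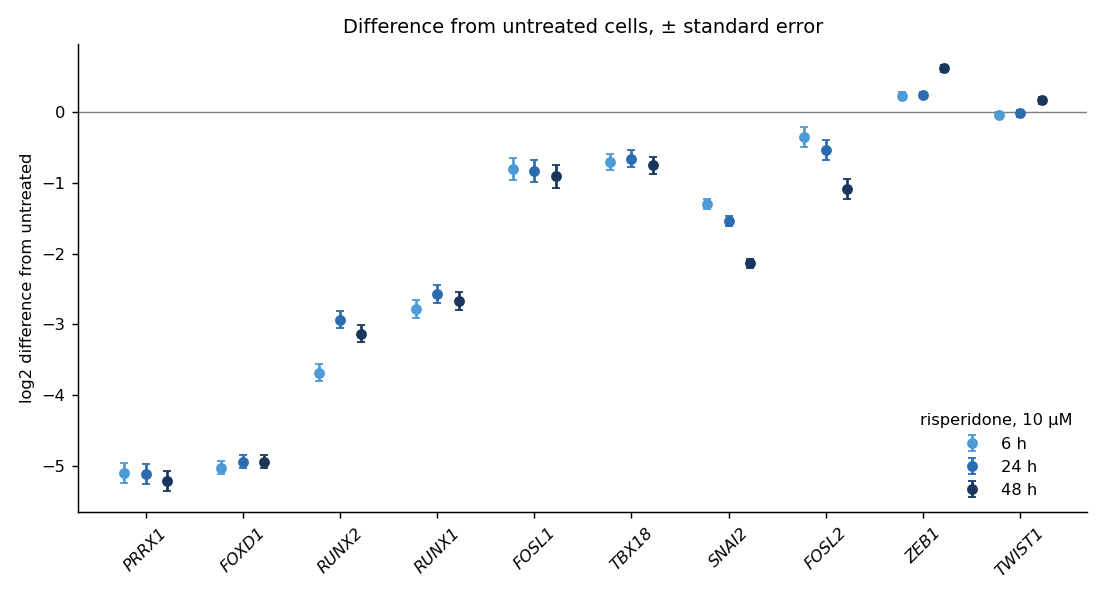
Difference from untreated cells in log2 units (vertical axis) for each of the 10 genes after 6, 24 and 48 h of 10 µM risperidone. Points are differences of means of 4 arrays and bars ± 1 standard error from limma. Values run from -5.21 for PRRX1 to 0.62 for ZEB1 at 48 h.

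The 10 genes were chosen on these contrasts, so the following counts describe the choice, are no test of the genes, and have nothing read from them. In the fit over all genes, 8 of the 10 lay past an adjusted p of 0.05 (limma) on the lower side and 1 on the higher side at 6 h, where 16.7% of all tested genes were lower and 36.6% higher. The counts were 8 and 1 at 24 h (all genes 16.9% and 35.3%) and 8 and 2 at 48 h (all genes 21% and 36%). The median difference of the 10 was -1.05, -1.19 and -1.61.

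Between exposure times 5 of the 10 genes passed the threshold in at least 1 contrast. The share of all genes that did so was not computed, so nothing is read from that count. From 6 to 24 h, 1 of 10 rose (RUNX2) and 0 fell, where 1.55% of all genes rose and 0.855% fell. From 24 to 48 h, 2 rose (ZEB1 and TWIST1) and 2 fell (SNAI2 and FOSL2), where 13.5% of all genes rose and 15.1% fell. Over the whole span from 6 to 48 h, 3 rose (RUNX2, ZEB1 and TWIST1) and 2 fell (SNAI2 and FOSL2), where 16.7% rose and 17% fell. The shares of 10 genes are small numbers, and no test of the list was made. PRRX1, FOXD1, RUNX1, FOSL1 and TBX18 passed the threshold in none of the 3 contrasts. For PRRX1 the 95% interval from 24 to 48 h was -0.40 to 0.19 and for FOXD1 -0.19 to 0.19, so moves within those bounds would not have been detected. The treated group means of these 5 genes, 3.60 to 4.15, lay near the bottom of the scale, where a further fall may be missed or understated.

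**Figure D3:**
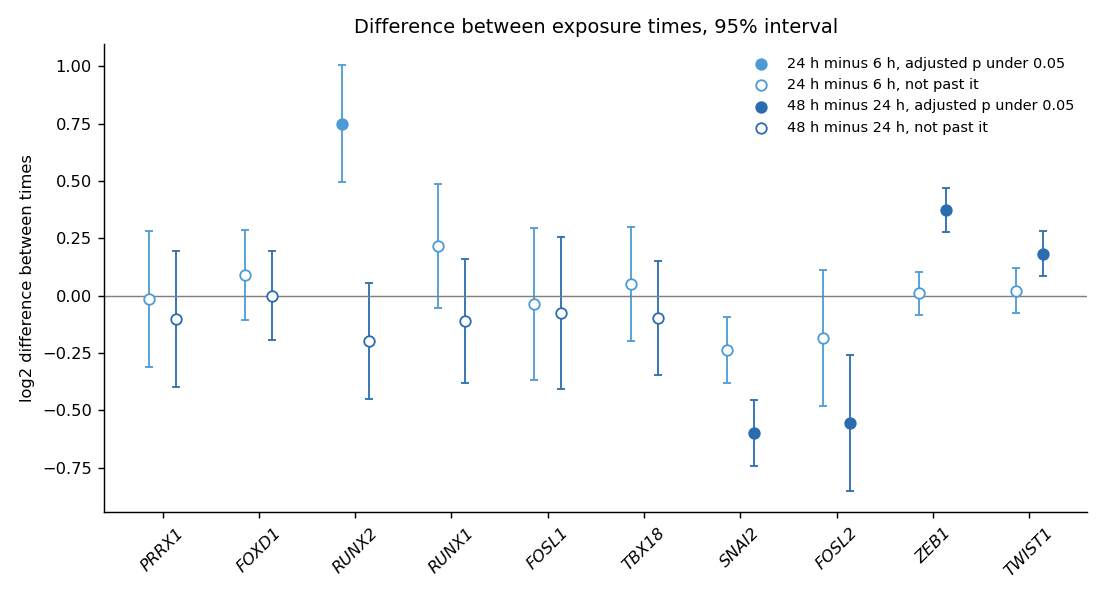
Differences between exposure times in log2 units (vertical axis) for the 10 genes, 24 minus 6 h and 48 minus 24 h, from means of 4 arrays with 95% intervals from limma. Filled points passed an adjusted p of 0.05. RUNX2 alone passed in the first step, and ZEB1, TWIST1, SNAI2 and FOSL2 in the second.

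Over all 16 arrays the values of PRRX1 and FOXD1 had a Pearson correlation of 0.995, and over the 12 treated arrays alone it was -0.0172. Within the 12 treated arrays SNAI2 ran with FOSL2 (0.885) and against TWIST1 (-0.938) and ZEB1 (-0.922), and TWIST1 ran with ZEB1 (0.911). These arrays form 3 groups by time and share their processing, so the coefficients describe the group differences above and carry no p.

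Tested genes outside the list were ranked by their correlation with each factor over the 16 arrays. Closest to PRRX1 were the guidance co-receptor NRP1 (Pearson correlation 0.998) and the matrix gene EFEMP1 (0.997), and closest to FOXD1 the matrix gene POSTN (0.997) and EMP1 (0.997). POSTN was also closest to RUNX1 (0.992), followed by MAGEC1 (0.991). RUNX2 was most like the membrane gene MYOF (0.995) and the gap junction gene GJA1 (0.994), both of which were lowest at 6 h: MYOF stood at -3.86, -3.20 and -3.42 from untreated and GJA1 at -3.29, -2.79 and -2.83. SNAI2 was most like TEAD2, a TEAD factor of the Hippo pathway (0.992), with differences of -1.51, -1.63 and -2.25, and ISOC1 (0.989). ZEB1 was most like ZNF592 (0.992) and IRF2BP2 (0.990), FOSL2 like the proliferation genes PCLAF (0.952) and CDCA2 (0.948), and TWIST1 like RPE (0.977) and ZZZ3 (0.945). FOSL1 paired with TLL1 (0.930) and VEPH1 (0.926), and TBX18 with ABCE1 (0.964) and ARHGAP11A (0.942). With 16 arrays in 4 groups, such coefficients mostly record the order of the group means.

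**Figure D4:**
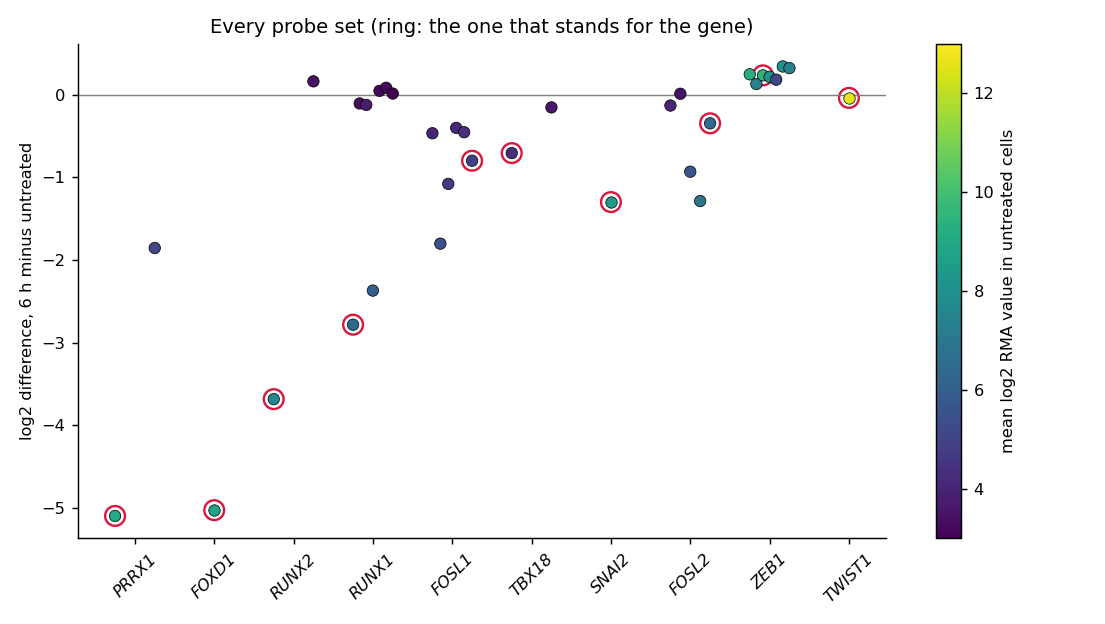
Difference from untreated at 6 h in log2 units (vertical axis) for each of the 34 probe sets, by gene, with the mean log2 value in untreated cells as colour. A ring marks the probe set that stands for the gene. Of the genes with several probe sets, the dim ones (dark) of RUNX1, RUNX2 and FOSL2 lie near 0 while bright ones of the same gene lie lower, and all 7 of ZEB1 lie above 0.

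Few family relatives of the factors passed the threshold at 6 h, in both directions. Of 11 tested paralogues (such as PRRX2, TWIST2, SNAI1, ZEB2 and RUNX3), 3 rose and 1 fell at 6 h against untreated. Among all genes 36.6% rose and 16.7% fell. The median was 0.03 beside 0.0925 over all genes. With cyclic loess normalisation 1 rose and 2 fell. TWIST2, the closest relative of TWIST1, fell by 2.47 ± 0.12 at 6 h, from a group mean of 5.69 to 3.22, while TWIST1 differed by -0.04. The other TWIST2 probe set differed by -0.11. PRRX2, the relative of PRRX1, stood at 7.57 in untreated cells and 7.82 at 6 h, a rise of 0.25 ± 0.06. FOXD4, a relative of FOXD1, rose by 0.46 ± 0.10 at 6 h and fell by 0.68 ± 0.10 from 24 to 48 h (adjusted p = 0.000125, limma). SNAI1 differed by 0.03 ± 0.07 at 6 h and was the single paralogue past the threshold from 6 to 24 h, where it fell by 0.37 ± 0.07 (adjusted p = 0.00915, limma).

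Partners and cofactors, which the factors bind on DNA or in complexes, went both ways. Of 27 tested, 8 rose and 11 fell at 6 h (median -0.06), where 36.6% of all genes rose and 16.7% fell. With cyclic loess 1 rose and 14 fell. The falls of largest size were those of the Hippo pathway coactivators YAP1, by 4.17 ± 0.18 (other probe sets -4.10 to -0.82), and WWTR1, by 3.28 ± 0.14 (other probe sets -3.06 to -0.64). TLE1, a corepressor that RUNX proteins recruit, rose by 0.38 ± 0.06, and TLE3 fell by 0.69 ± 0.08 from 24 to 48 h (adjusted p = 6.39e-06, limma). YAP1, chosen here after its values were seen, rose by 0.80 ± 0.18 from 6 to 24 h (adjusted p = 0.0231, limma), the same step in which RUNX2 rose. JUN, the AP-1 partner of FOSL1 and FOSL2, fell by 1.22 ± 0.08 at 6 h (other probe sets -0.97 to -0.49) and rose by 0.49 ± 0.08 from 24 to 48 h (adjusted p = 0.000128, limma), the step in which FOSL2 fell. CBFB, the partner of RUNX1 and RUNX2, differed by -0.13 ± 0.07 at 6 h. JUN and CBFB were likewise singled out afterwards.

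Other regulators counted as mesenchymal were mostly lower. Of 20 tested, 12 fell and 2 rose at 6 h (median -0.44), where 16.7% of all genes fell and 36.6% rose. The falls were led by IFI16, an interferon-inducible DNA sensor, by 3.86 ± 0.11, and by the chromatin architecture gene HMGA2, by 3.84 ± 0.15. The other HMGA2 probe sets differed by -0.66 to 0.17. EBF1 rose by 0.74 ± 0.07 (other probe sets 0.03 to 0.52). SOX9, a factor of cartilage and neural crest, rose by 0.75 ± 0.10 from 24 to 48 h (adjusted p = 4.1e-05, limma) after a group mean of 5.64 at 6 h against 8.07 in untreated cells. The other SOX9 probe sets differed from untreated by -0.935 to -0.585 at 6 h. From 6 to 24 h, HMGA2 and IFI16 rose by 0.65 and 0.51 (adjusted p = 0.0236 for both, limma) and MSX2 fell by 0.55 (adjusted p = 0.00197, limma). These 3 were the ones of the list past the threshold in that step, where 1.55% of all genes rose and 0.855% fell.

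Genes known as targets of the factors were set beside them. Of 22 tested genes that AP-1 or RUNX factors are known to induce, 14 fell and 2 rose at 6 h (median -1.02). With cyclic loess 15 fell and 1 rose. Among all genes 16.7% fell and 36.6% rose at 6 h. Stromelysin MMP3 fell by 3.62 ± 0.19 and collagen COL1A1 by 3.51 ± 0.10 (other probe sets -2.77 to -0.18), while VEGFA rose by 0.60 ± 0.06 (other probe sets 0.14 to 0.83). From 24 to 48 h, 5 of them fell and 0 rose, where 15.1% of all genes fell and 13.5% rose. With 1 array left out 5 to 6 fell and 0 to 1 rose. MMP3 fell by 0.70 ± 0.19 in that step (adjusted p = 0.00977, limma). Of 15 genes associated with TWIST1, PRRX1 or ZEB1, 13 fell and 0 rose at 6 h (median -1.33), beside the same shares of all genes at 6 h. The receptor kinase AXL fell by 3.90 ± 0.11 (its other probe set by 1.13) and periostin, POSTN, by 3.84 ± 0.09 (other probe sets -2.11 to -0.40). From 6 to 24 h, 3 of the 15 rose and 0 fell (1.55% and 0.855% of all genes), among them the fibroblast protease gene FAP, by 0.75 ± 0.12 (adjusted p = 0.00274, limma), singled out after its value was seen. From 24 to 48 h 4 of these 15 fell and 0 rose (15.1% and 13.5% of all genes), the cadherin CDH11 by 0.58 ± 0.08 (adjusted p = 2.82e-05, limma); with 1 array left out 2 to 6 fell and 0 to 1 rose, and with the mean of the probe sets 2 rose.

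Epithelial genes that SNAI and ZEB proteins are known to repress passed the threshold at 6 h in shares near those of all genes. Of 22 such genes on the array 12 were bright enough to be tested. At 6 h 4 of the 12 rose and 2 fell (median 0.03), where 36.6% of all genes rose and 16.7% fell. With cyclic loess 1 rose and 2 fell. CDH3 rose by 0.35 ± 0.11, from a dim 3.75. Keratin KRT18 fell by 4.07 ± 0.15, from 9.80 to 5.73, and KRT8 by 0.39 ± 0.07. From 24 to 48 h 0 of the 12 passed the threshold in either direction, where 13.5% of all genes rose and 15.1% fell. That 0 depended on the fit: 1 fell with the replicate block, with array medians subtracted or with only the 8 arrays compared, and 0 to 2 fell with 1 array left out.

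Most adrenergic transcription factors stood on the other side of untreated cells. Of 14 tested, 12 rose and 0 fell at 6 h (median 0.31), where 36.6% of all genes rose and 16.7% fell. With cyclic loess 10 rose and 1 fell. At 24 h 12 rose and 2 fell, and at 48 h 12 rose and 1 fell. TBX2 differed from untreated by -0.34 ± 0.06 at 24 h. SOX11 differed by -0.16 ± 0.06 at 24 h and by -0.385 ± 0.06 at 48 h. EYA1, a developmental coactivator, rose by 1.31 ± 0.05 and by a further 0.18 ± 0.05 from 6 to 24 h (adjusted p = 0.044, limma), and TFAP2B rose by 0.31 ± 0.04 from 24 to 48 h (adjusted p = 5.03e-05, limma). The counts of all lists against untreated rest on the same 4 untreated arrays and, for the background, on the shares of all genes given above. The lists were chosen with earlier results of these data known, so these counts describe the lists and test nothing.

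**Figure D5:**
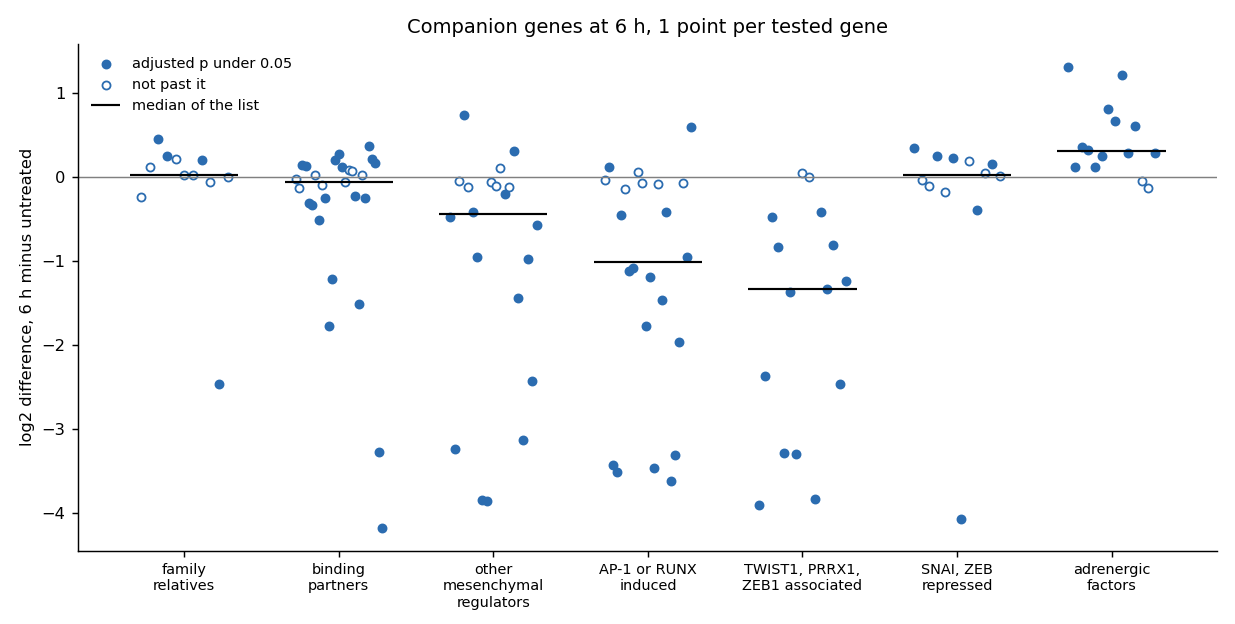
Difference from untreated at 6 h in log2 units (vertical axis) for the tested genes of 7 companion lists, 1 point per gene. Filled points passed an adjusted p of 0.05 and horizontal lines are list medians. Medians run from -1.33 for genes associated with TWIST1, PRRX1 or ZEB1 to 0.31 for adrenergic factors.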

How the data were processed

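The authors deposited log2 values per probe set, made by RMA per the submitters' processing notes: background correction, quantile normalisation between arrays and 1 summary value per probe set. The software version is not given in the sources used here. Quantile normalisation hides a change in total RNA per cell. Values had 2 decimals and ran from 2.57 to 13.98, with array medians of 4.50 to 4.62; the number of arrays limits the precision.

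GEO's platform annotation gave a single symbol for 45253 of 49386 probe sets (93 controls, 1327 with several symbols, 2713 others with none), 45172 of which matched RefSeq by Entrez identifier. Each of 18239 genes was represented by its probe set of highest mean over 16 arrays. The lowest 25% by that mean were left out, leaving 13680, with all 10 members among them. Because that mean includes the untreated arrays, a gene low only in treated cells can pass.

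Limma 3.58.1 in R 4.3.3 (lmFit, eBayes, two-sided) was fitted to all 16 arrays with a mean per group, with Benjamini-Hochberg adjustment within each contrast and a threshold of 0.05. Probe sets were fitted the same way over all 45253. Values after ± are standard errors. The members and the companion lists were chosen with earlier results of these data known. Named from each list were the largest rise and the 2 largest falls at 6 h and the largest move from 24 to 48 h, all past the threshold, with paralogues named where a member was set beside its family; each factor's 2 closest genes were named by correlation. Alternatives were other summaries of probe sets, filters, scalings, eBayes options, a replicate block, fewer arrays, a threshold of 0.01 and each array left out. Simulated data for 48 against 24 h over 13680 genes had 50 genes changed at each size and independent noise. The fit recovered 68% of the changes set to 1.25-fold, 94% of those set to 1.5-fold and 100% of those set to 2-fold, with 8 false calls of 189. The real contrast gave 3907 calls, so these figures need not hold for it.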

Additional observations from a re-analysis of the deposited data

Results flagged for a closer look

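Each of the 10 genes was checked in each of 4 groups for 1 array far from the other 3, by Dixon's test at its 95% critical value. Of 40 such groups 3 held one, and chance alone gives about 1 in 20. The lowest untreated ZEB1 array read 9.37, with the nearest at 9.52. The highest RUNX1 array at 6 h read 3.92, and the other 3 read 3.49. The lowest FOSL2 array at 48 h read 5.05, with the nearest at 5.41.

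Exposure times differed for 5 of the 10 genes by limma's test of the difference itself. Of all genes, 1.55% rose and 0.855% fell from 6 to 24 h. From 24 to 48 h 13.5% rose and 15.1% fell, and from 6 to 48 h 16.7% and 17%. The share of all genes that differed in at least 1 of these contrasts was not computed. The values below are the log2 differences. TWIST1 was higher at 48 h, by 0.18 against 24 h and 0.21 against 6 h, and ZEB1, with its brightest probe set, by 0.37 and 0.38. SNAI2 was lower at 48 h, by -0.60 against 24 h and -0.84 against 6 h, and FOSL2 by -0.56 and -0.74. RUNX2 was higher than at 6 h by 0.75 at 24 h and by 0.55 at 48 h. Time of exposure and time in culture cannot be told apart in these contrasts.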

How the results depend on the processing

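Of the differences between exposure times under the alternatives, 781 kept both their direction and their side of the threshold, 2 passed the threshold that had not before, and 9 changed sign. Of those, 1 also passed the threshold: ZEB1 from 6 to 24 h, -0.15 (adjusted p = 0.0375, limma) with the mean of its 7 probe sets in place of 0.01, over a range of adjusted p from 0.0375 to 0.998. The others came with 1 array left out and none passed the threshold: PRRX1 ran from -0.143 to 0.113 from 6 to 24 h and from -0.246 to 0.0108 from 6 to 48 h, FOSL1 from -0.0925 to 0.0675 from 6 to 24 h, and TBX18 from -0.17 to 0.02 from 6 to 48 h. FOXD1 from 24 to 48 h, at 0, has no direction and ran from -0.0633 to 0.0533. The 2 that newly passed were SNAI2 from 6 to 24 h, -0.24 with each array's median subtracted (adjusted p = 0.0398, limma) and -0.24 without the third untreated array (adjusted p = 0.0396, limma), over a range of 0.0396 to 0.231. The count of the 10 genes lower at 24 than at 6 h was thus 1 instead of 0 with the mean of the probe sets and with the medians subtracted, and 0 to 1 with 1 array left out. With the lowest 50% of genes left out, 0 genes were higher in that step in place of 1, and 2 in place of 8 were lower than untreated at 6, 24 and 48 h, because fewer of the 10 were tested. With 1 array left out, 7 to 8 of the 10 were lower at 6 h and 8 at 24 and 48 h; 2 rose and 2 fell from 24 to 48 h, 3 rose and 2 fell from 6 to 48 h, and 1 rose from 6 to 24 h. A fit without the untreated arrays was added after the data had been seen.

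With the mean of the probe sets PRRX1 stood at -3.48 from untreated at 6 h, RUNX2 at -1.76 and RUNX1 at -0.75. Subtracting array medians moved the median of all genes at 6 h from 0.0925 to 0.12, and cyclic loess moved it to 0.0092. With cyclic loess 49.3%, 49.3% and 49% of the calls at 6, 24 and 48 h were higher than untreated, against 68.7%, 67.6% and 63.1%.

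Deviations of samples with the same replicate number had correlations of -0.152 to 0.181 (24 pairs, median 0.0533). Those of samples with different numbers had -0.285 to 0.262 (72 pairs, median -0.0175). Of 16 arrays, 5 correlated best with their own number. No clear pairing by number was seen, though so small a check cannot exclude one. With the replicate number as a block, the counts of the 10 genes were as before in each contrast: 8 lower than untreated at 6, 24 and 48 h, 1 higher and 0 lower from 6 to 24 h, 2 and 2 from 24 to 48 h, and 3 and 2 from 6 to 48 h.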

Other observations

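The antisense gene ZEB1-AS1, which starts beside ZEB1 on the opposite strand, was higher at every exposure time. Its brighter probe set measured 5.94, 6.21, 6.26 and 6.34 in untreated cells and 6.82, 6.89, 6.90 and 6.72 at 6 h, a difference of 0.65 ± 0.08, and it stood 0.97 ± 0.08 above untreated at 48 h. From 24 to 48 h it changed by 0.18 ± 0.08 (adjusted p = 0.165, limma over all probe sets), where ZEB1 rose by 0.37; whether the 2 genes differed in this step was not tested. The dimmer ZEB1-AS1 probe set gave 0.43 and 0.75 at 6 and 48 h.

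Of the 20 tested genes next to the factors on their chromosomes, 5 rose and 2 fell at 6 h against untreated (limma), where 36.6% of all genes rose and 16.7% fell. GORAB beside PRRX1 differed by -0.10 at 6 h, BTF3 beside FOXD1 by -0.04 and BABAM2 beside FOSL2 by -0.08. NT5E, the gene of the mesenchymal surface marker CD73 and the neighbour of TBX18, fell by 3.99 ± 0.11 at 6 h (adjusted p = 2.05e-14, limma), while the neighbour on the other side, CEP162, rose by 0.48 ± 0.07. SUPT3H, the neighbour before RUNX2, rose by 0.80 from 24 to 48 h (adjusted p = 0.000198, limma), a step in which RUNX2 itself changed by -0.20. SETD4, after RUNX1, rose by 0.71 in the same step (adjusted p = 4.1e-05, limma). These neighbours were singled out after their values were seen. A probe set annotated to both SH3D19 and RUNX1 stayed at group means of 2.98 to 3.04 and was counted for neither gene.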
